A study of Mus musculus with 30 samples.

Results

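Transforming growth factor beta (TGF-beta) signalling was followed through 10 genes, Tgfb1, Tgfbr1, Tgfbr2, Smad2, Smad3, Smad4, Smad6, Smad7, Ski and Skil, chosen by name out of 21887 protein-coding genes. Earlier results of these data were known when the genes were chosen, so their counts are not an independent comparison with all genes. Peaks of Menin and UTX were assigned to a gene when the summit lay inside it or within 5 kb of it. The cells were WT-MA9, mouse acute myeloid leukaemia cells with a stable pMSCV-MLL-AF9-GFP insert, a retroviral construct for the MLL-AF9 fusion, grown with IL6, IL3 and SCF. This background was common to all libraries used here, which came from cells given DMSO as vehicle or MI-503, an inhibitor of the Menin-MLL interaction, and harvested 4 days later. There were 4 peak lists, 1 for either protein under either agent. Each came from 1 library, so differences between conditions have no replicate check and no test was made. Fold is the pileup at the summit over the local background, as the authors deposited it, and ranks run from the highest −log10 q within a list. The other 26 libraries that the labels describe were not analysed here.

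Menin is a scaffold of the MLL1 and MLL2 histone methyltransferase complexes, and UTX is a histone demethylase found in the MLL3 and MLL4 complexes. TGF-beta ligands bind a pair of receptor kinases, the type II receptor TGFBR2 and the type I receptor TGFBR1. The active type I receptor phosphorylates SMAD2 and SMAD3, which join SMAD4 and enter the nucleus to regulate genes. SMAD6 and SMAD7 are inhibitory SMADs that act as feedback brakes, while SKI and SKIL (SnoN) are corepressors that bind SMADs on DNA. In blood cells, TGF-beta is known for holding progenitors out of division.

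Promoter windows of 4 genes are shown first, those of Smad6, Tgfbr1 and Tgfb1, which held summits of both proteins, and that of Tgfbr2, whose start had UTX without Menin within 1 kb. Each window holds 250 bases before the start and 50 after it, from RefSeq on GRCm38.p6, the assembly of mm10, read on the strand of the gene. The table held such windows for 6 of the 10 genes. In the Smad6 window (chr9:64022010-64022309, minus strand), capitals mark GTCTAGAC, the palindromic SMAD box, and CCAAT, the box read by NF-Y. In the Tgfbr1 (chr4:47352972-47353271, plus strand) and Tgfbr2 (chr9:116175314-116175613, minus strand) windows, capitals mark CCAAT on either strand. In the Tgfb1 window (chr7:25686752-25687051, plus strand), capitals mark the GC box GGGCGG on either strand.
Smad6: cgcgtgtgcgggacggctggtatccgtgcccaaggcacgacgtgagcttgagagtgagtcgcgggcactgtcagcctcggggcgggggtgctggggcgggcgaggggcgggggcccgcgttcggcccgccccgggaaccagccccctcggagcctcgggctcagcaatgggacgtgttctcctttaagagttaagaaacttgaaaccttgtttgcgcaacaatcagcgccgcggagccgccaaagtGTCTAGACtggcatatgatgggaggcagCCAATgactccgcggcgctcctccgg
Tgfbr1: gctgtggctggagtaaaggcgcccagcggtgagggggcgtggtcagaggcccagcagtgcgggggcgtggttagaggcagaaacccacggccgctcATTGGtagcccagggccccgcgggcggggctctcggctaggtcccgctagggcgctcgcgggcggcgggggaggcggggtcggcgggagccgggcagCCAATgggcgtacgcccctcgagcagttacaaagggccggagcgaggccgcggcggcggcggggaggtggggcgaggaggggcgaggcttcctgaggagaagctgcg
Tgfbr2: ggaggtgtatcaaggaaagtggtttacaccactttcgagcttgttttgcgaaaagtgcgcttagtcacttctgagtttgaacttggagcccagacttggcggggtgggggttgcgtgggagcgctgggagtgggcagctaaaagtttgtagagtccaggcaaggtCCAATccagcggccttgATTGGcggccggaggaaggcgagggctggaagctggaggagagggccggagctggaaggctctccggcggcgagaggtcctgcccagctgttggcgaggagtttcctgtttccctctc
Tgfb1: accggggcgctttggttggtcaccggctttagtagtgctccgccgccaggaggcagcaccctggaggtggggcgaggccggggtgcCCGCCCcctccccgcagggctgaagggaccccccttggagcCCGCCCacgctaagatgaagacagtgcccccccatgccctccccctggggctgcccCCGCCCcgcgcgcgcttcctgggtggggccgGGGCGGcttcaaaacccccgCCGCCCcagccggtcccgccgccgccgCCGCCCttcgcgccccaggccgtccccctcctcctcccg

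The Smad6 window was the only one of the 6 genes with the palindromic SMAD box GTCTAGAC, which begins 4 bases before the annotated start. That motif was present in 0.213% of all 32851 promoter windows of the table. Only the full palindrome was searched, so shorter parts of it in the other windows were not counted. CCAAT or its complement occurred 2 times in the first Tgfbr1 window, 2 times in Tgfbr2 and 1 time in Smad6, and it occurs in 37.4% of all windows. GGGCGG or its complement occurred 6 times in Tgfb1 and 6 times in Ski, 4 in Smad6, 2 in Smad3 and 2 in the first Tgfbr1 window, and it occurs in 35.7% of all windows. It was not found in these letters in Tgfbr2. CACGTG and TGANTCA, searched on both strands, were found in none of the members' 7 windows, and occur in 7.15% and 7.81% of all windows. The windows at the outer starts held more CpG than the median of 7 over all windows, with 15 in Tgfbr2, 25 in Smad3, 30 in Tgfb1, 31 in Smad6, 34 in Tgfbr1 and 59 in Ski. Of all windows, 65.4% held fewer than Tgfbr2, and 81.6% to 99.9% held fewer than the others. A further Tgfbr1 window, at an internal start (chr4:47385966-47386265), held 3 CpG, CCAAT 1 time and no summit. These matches describe the letters and do not show that a factor was bound.

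Of the 10 genes, 9 had a Menin peak in DMSO and the same 9 had a UTX peak in MI-503. The gene without a peak of either kind was Skil. Among all protein-coding genes, 42.9% had a Menin DMSO summit inside or within 5 kb, 48.3% had a UTX MI-503 summit, and 38% had both. Long genes have more room for a summit, and the members were 18.1 to 111 kb long. Among the 8513 protein-coding genes of that length range, the shares were 51.9%, 57.9% and 46.4%. No member had a peak of 1 protein without the other, where 4.84% of all genes had Menin alone and 10.3% UTX alone, and 46.9% had neither, as Skil did. No member had a peak of Menin in MI-503, where 0.0183% of all genes had one, and 0.0352% in the length range. No member had a peak of UTX in DMSO, where 1.07% of all genes had one, and 1.33% in the length range. Menin in vehicle and UTX under the drug were measured in different cells, so both proteins were not shown on the same chromatin.

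The lists differed in length and in how they were called, which bears on the absent peaks. They held 11195 peaks for Menin in DMSO, 8 for Menin in MI-503 and 14231 for UTX in MI-503, and the UTX DMSO list was 1.52% as long as the last. The lowest −log10 p called was 4.27 in both longer lists, 7.53 for UTX in DMSO and 13.6 for Menin in MI-503. Of the UTX MI-503 peaks at these genes, 20 of 23 reached 7.53, beside 88.7% of the whole list. Of the Menin DMSO peaks 13 of 22 reached 13.6, beside 56.3% of that list. Each of the 9 genes had at least 1 peak of each kind above those values. They are the lowest values called in the shorter lists, not known calling limits. Whether the member peaks could have been called there was not tested. With each list held to as many of its highest peaks as the UTX DMSO list has, the longer lists left 0 members with Menin and 0 with UTX. A list of that length reaches few genes, since the UTX DMSO list itself reached 1.07% of all genes within 5 kb. So 0 of 10 says little about these genes. The narrowest peak was 179 bp in the longer lists, 127 bp for UTX in DMSO and 62 bp for Menin in MI-503. Pileups in the 2 shorter lists came in steps of 0.742 for Menin in MI-503 and 0.8746 for UTX in DMSO, and in whole fragments in the longer lists. If the caller scaled the larger library down, the libraries of the 2 shorter lists held 1.35 and 1.14 times the reads of their inputs, and those of the longer lists no more than theirs. By the peak names, both lists of a protein were paired with the same DMSO input. In that case the shorter list of each protein came from the larger library. The part that these differences play in the missing calls was not tested. The nearest UTX DMSO summit to any member was 232 kb from Smad6.

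**Figure D1:**
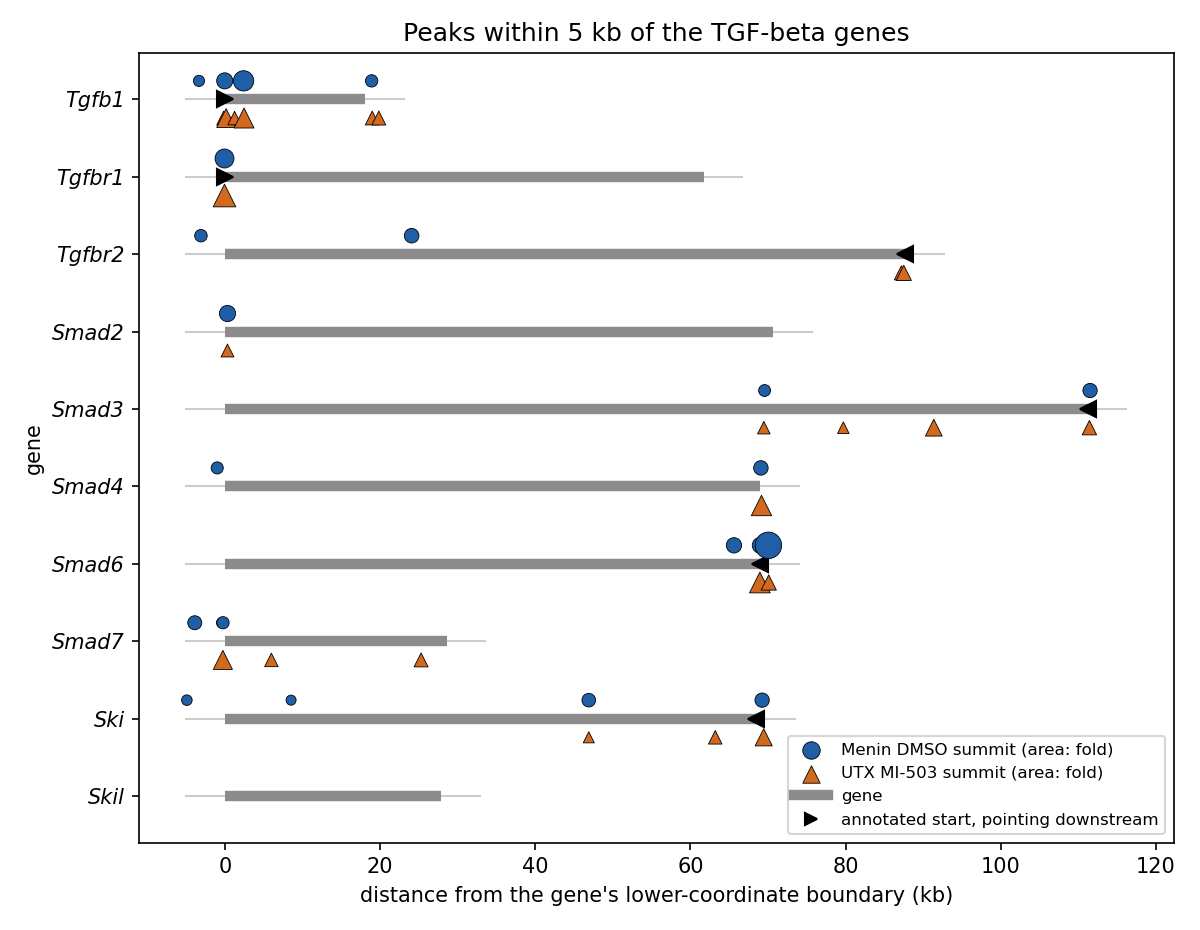
Positions of Menin DMSO (circles, above) and UTX MI-503 (triangles, below) summits along the 10 genes, with distance in kb from the lower-coordinate end of each gene, marker area proportional to fold, and the outermost annotated start marked where the promoter table gives one. The 2 adjoining Menin circles at the Smad7 end overprint each other. Summits of both kinds gather at 1 end of most genes, Tgfbr2 has UTX but no Menin summit at its start, and Skil has none.

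Several summits fell at most of the 9 genes. At least 2 Menin summits were assigned to 7 of the 10 genes, beside 13.4% of genes in the length range, and at least 3 to 4 genes, beside 3.16%. At least 2 UTX summits were assigned to 6 genes, beside 22%, and at least 3 to 4 genes, beside 7.19%. Tgfb1 had 4 Menin and 6 UTX peaks, Ski 4 and 3, Smad7 3 and 3, Smad6 3 and 2, Smad3 2 and 4, Tgfbr2 2 and 2 and Smad4 2 and 1. Tgfbr1 and Smad2 had 1 of each. The counts include adjoining calls at the same place, for UTX at the Tgfbr2 start and for Menin at Smad7. They also include Menin peaks nearer to an end of B9d2 or Morn1 than to the member. Within the length range the shares were not matched to each gene, and Tgfbr1, Tgfbr2, Smad2, Smad3, Smad4, Smad6 and Ski were 61.7 to 111 kb long. Just inside the 5 kb limit lay a Ski peak at 4934 bp, and just outside it, beyond Tgfb1, lay 2 Menin peaks and 1 UTX peak 5898 to 6252 bp away at the neighbouring gene B9d2.

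Most genes had summits at an end. Counting only summits at most 1 kb from either gene end, here called boundary peaks, 8 of the 10 genes had Menin in DMSO, where 31.2% of all genes had it. For UTX in MI-503 the count was 9, where 36.5% had it, and 8 had both, where 28.4% had both. Tgfbr2 had UTX alone and Skil neither, where 8.1% and 60.7% of all genes did, and none had Menin alone, where 2.85% did. The 2 shorter lists had no boundary peak at a member, where 0.00914% of genes had one for Menin in MI-503 and 0.777% for UTX in DMSO. For the 6 genes whose start is annotated with its strand, 5 had a Menin and 6 a UTX summit within 1 kb of the start, where 33.5% and 39.1% of genes with such an annotation had one. None had UTX in DMSO there, where 0.863% did. The exception for Menin was Tgfbr2. The gene table gives extents without exons, so summits inside genes were not assigned to exons or introns.

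Tgfb1 encodes the main TGF-beta ligand of blood and immune cells (mm10, chromosome 7, 25687002 to 25705077). Its highest fold values for both proteins lay inside the gene. The internal Menin peak (25689054 to 25689606) had its summit 2378 bp downstream of the start, a fold enrichment of 13.6 and rank 867 in its list. It rested on 70 fragments at the summit, a count solved from the deposited fold and p (exact Poisson 95% interval 54.6 to 88.4, for counting error only). The overlapping UTX peak (25689094 to 25689737) was 13.1-fold on 23 fragments (14.6 to 34.5), at rank 2812 of 14231. At the start itself, the Menin peak (25686729 to 25687207) was 8.52-fold on 35 fragments, with its summit 52 bp upstream. UTX had 2 peaks there, with summits 192 bp upstream at 6.32-fold and 126 bp downstream at 11.7-fold. The background was higher at the internal Menin peak, and the intervals of the fold, with the background held fixed, overlapped between the start (6.01 to 11.8) and the internal peak (10.6 to 17.1). The UTX intervals overlapped too. Overlap of such intervals does not decide an order, and the difference between start and internal peaks was not tested for either protein.

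Other Tgfb1 peaks were lower. A Menin peak 816 bp past the far end (5.05-fold) overlapped a UTX peak 890 bp past it (6.28-fold). UTX alone had peaks 1219 bp into the gene (6.02-fold) and 1746 bp past the end (6.46-fold), on 10 and 15 fragments. A Menin peak 3375 bp upstream (4.09-fold) lay inside B9d2, and its summit was nearer to an end of B9d2 than to Tgfb1. B9d2 ends 388 bp from the Menin summit at the Tgfb1 start, so that peak lies close to both genes.

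The receptor genes differed in their Menin peaks. Tgfbr1 encodes the type I receptor (chromosome 4, 47353222 to 47414926) and had a single peak of each protein, both at its start. Menin (47352809 to 47353267) was 11.8-fold on 39 fragments, 111 bp upstream and at rank 2299. UTX (47352909 to 47353287) was 17.0-fold on 30 fragments, 139 bp upstream and at rank 1592, the highest UTX fold among the 23 member peaks. The local background was 2.39 for Menin and 0.827, the lowest of its list, for UTX. The folds of the 2 proteins therefore do not rank one against the other. The summits, 28 bp apart, both fell within the window printed above, between the pair of capitalised sites. A predicted non-coding gene, Gm32435, lies within 1 kb of both summits.

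Tgfbr2, the type II receptor gene (chromosome 9, 116087695 to 116175363), had UTX peaks at its start without a Menin peak. Their summits lay 161 and 468 bp downstream (116175009 to 116175475 and 116174816 to 116175004), at 7.64-fold and 6.57-fold, on 13 fragments (6.92 to 22.2) and 11 fragments (5.49 to 19.7). Menin was called 63617 bp downstream of the start inside the gene (7.02-fold, 26 fragments) and 3121 bp past the far end (5.15-fold, 21 fragments). No Menin and UTX peaks of Tgfbr2 overlapped. A non-coding gene, Gm40582, lies within 1 kb of both UTX summits.

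Among the SMADs that carry the signal, Smad2 and Smad4 each had 1 overlapping pair at 1 end of the gene. Smad2 (chromosome 18, 76241090 to 76311748) had a Menin peak of 8.65-fold on 29 fragments and a UTX peak of 5.47-fold on 9 fragments (4.12 to 17.1), 245 and 206 bp inside its lower-coordinate end. This UTX peak had the lowest fold of the 12 UTX peaks at boundaries of these genes. Smad4 (chromosome 18, 73634790 to 73703791), the partner shared by all signalling SMADs, had Menin at 6.91-fold on 27 fragments and UTX at 13.7-fold on 24 fragments, 83 and 152 bp outside its upper-coordinate end. A non-coding gene, 4930578L24Rik, lies within 1 kb of both Smad4 summits at the upper-coordinate end. A further Menin peak of 4.82-fold lay 1022 bp beyond the other end of Smad4, just outside the 1 kb limit.

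Smad3 (chromosome 9, 63646766 to 63757994), the other receptor-activated SMAD, had moderate peaks at its start and more UTX inside. The summits at the start lay 301 bp upstream for Menin (6.73-fold, 30 fragments) and 216 bp upstream for UTX (6.86-fold, 14 fragments). Inside the gene, 41.7 kb from the start, a Menin peak of 4.65-fold overlapped a UTX peak of 5.20-fold. UTX alone had a peak 19847 bp from the start (63738000 to 63738304) at 9.30-fold on 16 fragments, the highest UTX fold of Smad3, and another 31516 bp from it at 4.44-fold. A non-coding gene, Gm51710, lies within 1 kb of the summit of the 9.30-fold peak.

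The inhibitory SMAD genes held the highest Menin peak of the set. At Smad6 (chromosome 9, 63953076 to 64022085) a Menin peak (64022896 to 64023304) lay 1071 bp upstream of the annotated start at 23.0-fold. It was at rank 267 of 11195, in the top 2.38% of the list, on 94 fragments (76.0 to 115). A Menin peak at the start itself (64021943 to 64022232) was 8.27-fold on 32 fragments (21.9 to 45.2), with its summit 11 bp upstream. Their fold intervals, 18.7 to 28.1 upstream and 5.73 to 11.6 at the start, did not overlap. UTX had peaks at both places, 14.2-fold on 25 fragments (16.2 to 36.9) 27 bp downstream of the start, and 7.66-fold on 13 fragments (6.92 to 22.2) upstream. For UTX these intervals overlapped, which does not decide an order, and the difference was not tested. The SMAD box printed above lies between the Menin and UTX summits at the start. A further Menin peak, 3371 bp downstream, was 7.72-fold and had no UTX peak over it.

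Smad7 (chromosome 18, 75367365 to 75395935) had low-ranked Menin and higher-ranked UTX peaks at its lower-coordinate end, each within its own list. Menin had 2 adjoining peaks 275 and 472 bp outside, at 4.92-fold on 17 fragments and 3.29-fold on 13 fragments, the second at rank 11170 of 11195. A single UTX peak (75366911 to 75367225) overlapped both, at 12.0-fold on 21 fragments and rank 3294. A Menin peak 3917 bp outside that end was 6.45-fold and had no UTX peak over it. UTX had peaks inside the gene, 5964 and 3303 bp from its ends, at 6.02-fold and 6.46-fold, without Menin. The predicted non-coding gene Gm20544 lies within 1 kb of the summits at this end.

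The corepressor genes differed from each other. Ski (chromosome 4, 155154075 to 155222535) had Menin 785 bp upstream of its start (6.74-fold, 26 fragments) and an overlapping UTX peak 988 bp upstream (9.68-fold, 18 fragments). A second place shared by both lay inside the gene, 21568 bp from the start, where the summits fell on the same base. There Menin was 6.11-fold on 40 fragments and UTX 4.05-fold on 12 fragments. The local background at that place was 2.44 and 2.67 times the lowest of each list. Menin alone had peaks at 59959 bp (3.32-fold, background 2.79 times the lowest) and past the far end (3.67-fold, nearer to an end of Morn1), and UTX alone had one 5259 bp from the start (6.02-fold). Skil (chromosome 3, 31095058 to 31122923) had no summit of any list within 5 kb. Its nearest Menin DMSO summit was 33.6 kb away and its nearest UTX MI-503 summit 99.3 kb away. Neither corepressor paralog nor any other member had a peak in the 2 shorter lists.

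**Figure D2:**
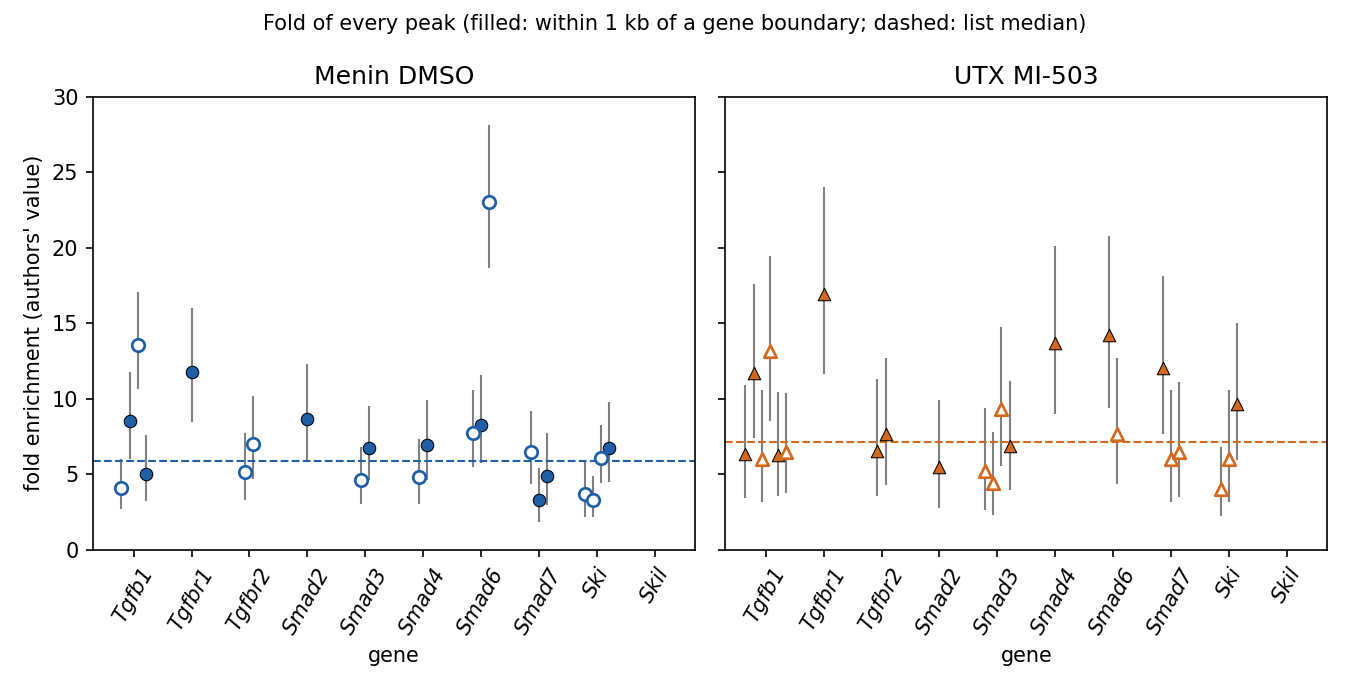
Fold enrichment of every Menin DMSO peak (circles) and UTX MI-503 peak (triangles) of the 10 genes, as the authors deposited it; bars are exact 95% Poisson intervals of the fragments at the summit with the background held fixed, filled markers lie within 1 kb of a gene end, and dashed lines are the list medians of 5.87 and 7.11. The Smad6 upstream Menin peak stands highest at 23.0, and its interval overlaps no other Menin interval in the plot.

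Most member peaks were of ordinary height for their lists. The 22 Menin peaks had a median fold of 6.59, beside 5.87 over the list, and 13 of them ranked in the upper 50% by −log10 q. The 23 UTX peaks had a median of 6.57, beside 7.11, and 10 ranked in the upper 50%. At gene boundaries the medians were 6.83 for 10 Menin peaks, beside 6.99 over all Menin boundary peaks, and 8.66 for 12 UTX peaks, beside 8.76. The upper 10% of a list held 2 member peaks for Menin, at Smad6 and Tgfb1, and 0 for UTX. Member peaks rested on 13 to 94 fragments for Menin and 9 to 30 for UTX.

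Gene by gene, few values stood apart from the boundary medians beyond counting error. By the highest boundary peak against the median of all boundary peaks of the same list, Tgfb1, Tgfbr1 and Smad6 were above it for both proteins. Smad4, Smad7 and Ski were below it for Menin and above it for UTX. Smad2 was above for Menin and below for UTX, Smad3 was below for both, and Tgfbr2 had UTX alone, below its median. Smad4 and Ski lay close to the Menin median of 6.99, at 6.91 and 6.74, as did Smad3 at 6.73. Taking the highest peak favours genes with several. The other boundary peaks of Tgfb1 were below the medians, at 5.05-fold for Menin and at 6.32-fold and 6.28-fold for UTX. The 95% interval of the fold lay wholly above the median at Tgfbr1 for Menin, and at Tgfbr1, Smad4 and Smad6 for UTX. At the other genes it held the median, as at Smad7 (2.98 to 7.72 for Menin, 7.66 to 18.1 for UTX) and Smad2 (5.89 to 12.3, 2.80 to 9.90), so their side could not be read.

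**Figure D3:**
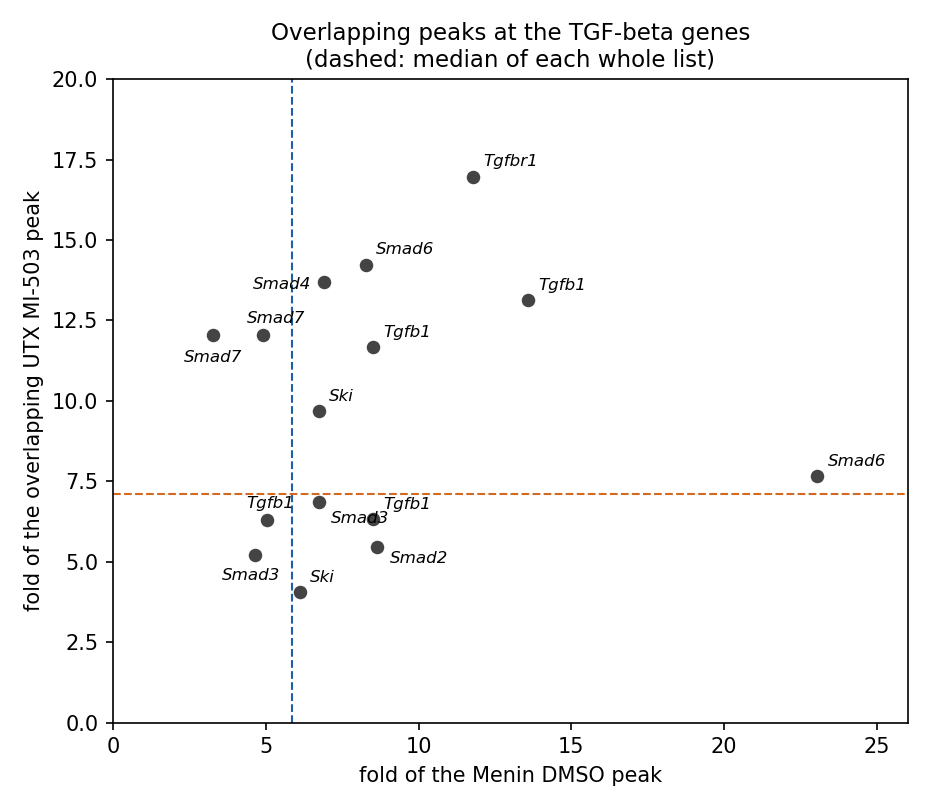
Fold of each Menin DMSO peak (horizontal axis) and of the UTX MI-503 peak overlapping it (vertical axis) at the members, 1 point per overlapping pair, with dashed lines at the list medians. Smad7 lies left of the Menin median and above the UTX median, Smad2 the opposite way, and the upstream Smad6 pair lies far right at 23.0 and 7.66.

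Shared places were chiefly at gene ends. Of the 22 Menin peaks, 14 shared at least 1 bp with a UTX MI-503 peak (63.6%, exact 95% interval 40.7 to 82.8%), beside 66.4% of the whole Menin list. Menin peaks overlapped 14 of the 23 UTX peaks (60.9%, 38.5 to 80.3%), beside 53.4% of the UTX list. These Clopper-Pearson intervals treat peaks as independent, which neighbouring peaks are not. Within 1 kb of a member's end, 10 of 10 Menin peaks were overlapped, beside 86.8% over all Menin boundary peaks. Farther from the ends 4 of 12 were, beside 40.2% over all such Menin peaks. For UTX, 10 of 12 boundary peaks and 4 of 11 others were overlapped, beside 67.9% and 33.4%. The 14 and 14 peaks formed 15 overlapping pairs, whose summits lay 0 to 203 bp apart with a median of 69 bp. The shares at these genes were thus close to those of the whole lists.

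Beyond the members, 78 other genes of the pathway were listed in 8 groups by role. Earlier results of these data were known when this list was made too, so its counts are described only. Of these, 42 had a Menin DMSO summit inside or within 5 kb and 50 a UTX MI-503 summit, and at the boundary 35 and 37 did, with both at 32 (41.0%). Over all protein-coding genes the shares were 42.9% and 48.3% within 5 kb, and 31.2%, 36.5% and, for both, 28.4% at the boundary. Where a peak was present at the boundary, the median of the genes' highest folds was 6.89 for Menin and 10.8 for UTX. No other pathway gene had a Menin MI-503 peak, and 1, Id2, had a UTX DMSO peak.

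Boundary counts of ligand, latency and receptor genes were near or below those background shares. Of 7 other ligand genes, 2 had both boundary peaks, Gdf15 (7.51-fold Menin, 15.3-fold UTX) and Inhbb (3.58-fold, 8.89-fold), while Tgfb2 and Tgfb3, the other TGF-beta isoforms, had no peak. None of 10 genes for latency and activation had a boundary peak. Within 5 kb, 3 of the 10 had Menin and 6 had UTX, beside 42.9% and 48.3% of all genes. In the length range of the members the shares were 51.9% and 57.9%, and no background was matched to the lengths of these 10 genes. Lrrc32 and Nrros, which anchor latent TGF-beta on blood cells, had no peak at all. Of 11 other receptor genes, 3 had a Menin and 4 a UTX boundary peak. Acvrl1, which encodes the type I receptor ALK1, had 5.91-fold and 13.8-fold, the activin receptor gene Acvr2b 9.87-fold and 10.4-fold, and Acvr1b 5.58-fold and 9.69-fold. Acvr2a had UTX alone at 6.11-fold, and Eng and Acvr1 had none. Smad1 and Smad9, which act in the related BMP pathway, had no peak, and Smad5, named after its values were seen, had Menin alone at 4.81-fold.

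Nuclear partners, adaptors, ubiquitin enzymes and target genes had boundary counts above the background shares. Of 13 other corepressors and partners, 8 had a Menin and 10 a UTX boundary peak, led for UTX by the deacetylase gene Hdac1 (4.73-fold Menin, 21.9-fold UTX), Foxh1 (11.3-fold, 15.1-fold), Ctbp1 (6.58-fold, 13.7-fold) and Ep300 (UTX alone, 10.8-fold), while Zeb1 and Zeb2 had none. Of 11 adaptors, phosphatases and TAK1 genes, 7 and 8 had one. Strap (10.7-fold, 17.0-fold), the pseudoreceptor gene Bambi (12.9-fold, 16.4-fold), Map3k7, which encodes TAK1 (9.59-fold, 15.3-fold), and Zfyve16 (6.89-fold, 14.8-fold) led for UTX, and Zfyve9 and Tab2 had none. Of 9 ubiquitin ligase and deubiquitinase genes, 6 and 5 had one. Stub1 (17.6-fold, 18.6-fold), Wwp1 (5.07-fold, 16.7-fold), Usp15 (6.54-fold, 8.21-fold) and the receptor-directed ligase gene Smurf2 (9.61-fold, 6.41-fold) led for UTX, and Usp11 had none.

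Of 14 known transcriptional targets, 8 had a Menin and 8 a UTX boundary peak. Junb, an AP-1 gene, was 16.3-fold for Menin and 41.2-fold for UTX, and Klf10, the TGF-beta inducible early gene, was 20.4-fold and 31.7-fold. Id2, an inhibitor of helix-loop-helix factors, was 7.72-fold and 23.0-fold and was 9.32-fold for UTX in DMSO, and Bhlhe40 was 7.21-fold and 20.8-fold. Ccn2, a classical target in stromal cells, had no peak. No expression was measured in these files, so peaks were not set beside transcript levels.

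**Figure D4:**
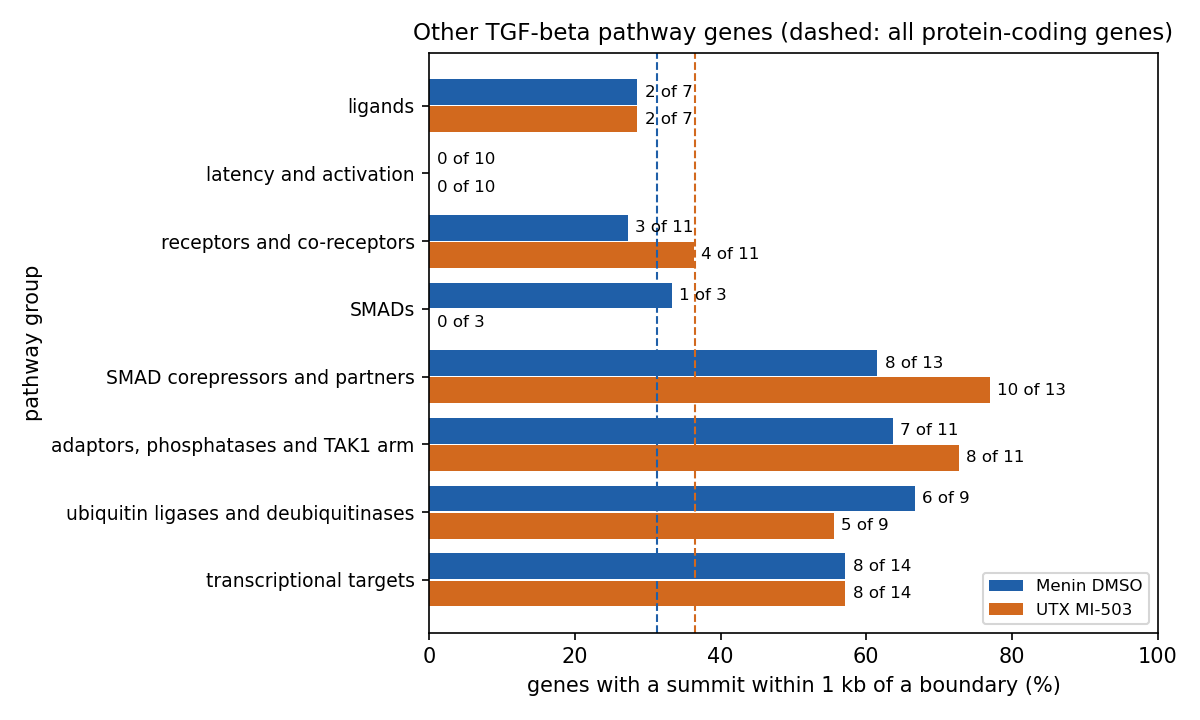
Share of the other TGF-beta pathway genes, by role, with a Menin DMSO (blue) or UTX MI-503 (orange) summit within 1 kb of a gene end, with the count beside each bar; dashed lines are the shares over all protein-coding genes, 31.2% and 36.5%. Latency and activation genes have 0 of 10 for both proteins, while corepressors have 8 and 10 of 13.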

How the data were processed

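Peaks were called with MACS2 on single libraries, per the submitters' processing notes, which name mm10 for mouse and no version. Peak names in the deposited files pair both Menin lists with 1 DMSO input and both UTX lists with another. No source used here gives the aligner, the filters or the q threshold. The deposited fold is a ratio of summit pileup to local background, the deposited −log10 values are p and q, and in each of the 25651 peaks the deposited score equals 10 times −log10 q with its decimals dropped. The summit offset is also as deposited.

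The members and gene lists were chosen with earlier results of these data known. Genes and promoter windows came from RefSeq (GRCm38.p6), which matched all 10 members and all 88 pathway names. The table has no strand, so gene ends served as boundaries and promoter windows (6 members) gave starts. Positions are printed from 1. Ranks are by −log10 q within a list, ties sharing the better rank. Fragments at a summit were solved from fold and p, taking pileup plus 1 over background plus 1 and a Poisson tail. Whole fragments matched −log10 p within 0.005 in 100% of peaks of the longer lists, with a second solution in 1 Menin and 59 UTX peaks. Absolute depth is unknown. On simulated peaks, 100% of 300 planted genes and 100% of 335 fragment counts were recovered. Named genes were all members and, per pathway group, up to 4 others by highest UTX MI-503 boundary fold and up to 2 without any peak; 1 gene that this rule names is not reported here. No p-value was computed, since each condition has 1 library. Alternatives covered windows, thresholds, list lengths and overlap. Python 3.11.15, pandas 2.3.3 and scipy 1.17.1 were used.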

Additional observations from a re-analysis of the deposited data

How the results depend on the processing

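The 19 counts and shares were recomputed under 113 alternatives, and 104 stayed within 1.5 times the value given or within its interval. The 104 include member counts in the 2 shorter lists, and pathway counts for Menin in MI-503, that were 0 from the start. A stricter setting could not move those. With only as many of the highest peaks of each list as the UTX DMSO list holds, 0 members had a Menin DMSO peak, 0 a UTX MI-503 peak and 0 both. The other pathway genes then fell to 0 for Menin, 2 for UTX and 0 for both, from 42, 50 and 39. The UTX DMSO list itself reached 1.07% of all genes within 5 kb, so a count of 0 members says little at that length. With summits inside the gene alone, 6 members had Menin, 7 had UTX in MI-503 and 6 had both, in place of 9 for each. These counts stayed within the limit of 1.5 times, and no share of all genes is given for this setting. The other pathway genes had 27 with Menin, 23 with both and 0 with UTX in DMSO inside the gene, in place of 42, 39 and 1. Alternatives that held the longer lists to the lowest p of the shorter ones, or left out peaks on a background above 2 times the lowest, were chosen after seeing the data. No paired analysis was possible because each condition has 1 library and no result comes from a test. Fragment counts of 9 to 30 limit the precision of UTX values at single genes.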

Other observations

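The SMAD box found at the Smad6 start was also looked up at other genes, after it was seen there. Of the 70 promoter windows with GTCTAGAC, 21 had a Menin DMSO summit within 1 kb of the annotated start (30%, beside 23.4% of all 32851 windows). A UTX MI-503 summit was found at 24 of the 70 (34.3%, beside 27.6%). Named after their values were seen, Srsf1, a splicing factor gene, and Map4 were among those with both, Sirt6, a deacetylase gene, among those with Menin alone, and Tert and Pgr among those with UTX alone. Several windows belong to the same or neighbouring genes, such as H2ac22 and H2bc22, so they are not independent. No test was made.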
